A study of Homo sapiens with 24 samples.

Results

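The 46 genes described here are estrogen-responsive genes of breast cells, taken by gene symbol from count tables of 26364 genes, and all 46 symbols were present. They were chosen by symbol, with no threshold on a measured value, but with earlier results of these data known. Contrasts of the members with all genes are therefore descriptions. RNA was counted in 24 libraries from T-47D, an established estrogen receptor-positive breast cancer cell line, whose clones carried wild-type estrogen receptor α (WT) or the ligand-binding-domain mutation Y537S or D538G, introduced at the endogenous ESR1 locus. Each genotype was represented by 2 clones, every condition by 1 library per clone, and all cells were kept in hormone-deprived medium for 4 days before plating and transfected at 10 nM, with RNA collected 24 h later. The Y537S clones received a mimic of miR-301b-3p or miR-331-3p, an inhibitor of let-7f, or the negative control for mimics or for inhibitors. The D538G clones received the mimic negative control or a mimic of miR-301b-3p or miR-181c-5p, and the WT clones these same 3 treatments and the miR-331-3p mimic. No library was treated with estradiol, so the levels are those of cells without added ligand. A genotype is 2 clones of 1 cell line, and p-values measure only the spread between those clones.

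Estrogen receptor α is a nuclear receptor that binds DNA after it binds estradiol, most directly at the palindromic estrogen response element, and recruits coactivators that raise transcription of nearby genes. Secreted proteins such as trefoil factors, growth regulators such as GREB1 and MYC, and membrane proteins such as the carbonic anhydrase CA12 are classical targets in luminal breast cancer cells. The Y537S and D538G receptors hold the active conformation without hormone. MicroRNAs (miRNAs) act after transcription: the bases of the seed, positions 2 to 8 from the 5′ end, pair with the 3′ untranslated region (3′ UTR) of a messenger RNA and lower its stability or translation.

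The miRNAs are shown so that the seed matches of the members can be read. These are the mature RefSeq sequences (GRCh38.p14), 5′ to 3′, with the seed in capitals, and the 4 seeds all differ.
hsa-miR-301b-3p: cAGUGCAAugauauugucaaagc
hsa-miR-331-3p: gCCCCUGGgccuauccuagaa
hsa-miR-181c-5p: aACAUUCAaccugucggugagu
hsa-let-7f-5p: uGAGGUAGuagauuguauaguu

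A match was defined as the 7 bases complementary to the seed, on the transcript strand, anywhere in the 3′ UTR of the canonical GENCODE transcript (GRCh37). For miR-301b-3p (TTGCACT), 6 members held a match (13%), against 15.9% of 13970 genes tested with a 3′ UTR: MYB, SGK3, EGR3, MREG, UGCG and BCAS1. For miR-331-3p (CCAGGGG) the count was 9 (19.6%, against 15.4%): EGR3, ADCY9, CTSD, TMPRSS3, B4GALT1, ABHD2, KCNK5, SERPINA1 and PTGES. For miR-181c-5p (TGAATGT) it was 11 (23.9%, against 21.1%): CXCL12, MYC, STC2, SGK3, EGR3, ADCY9, MAPT, B4GALT1, KCNK5, SERPINA1 and WFS1. For let-7f-5p (CTACCTC) it was 5 (10.9%, against 10.8%): GREB1, FKBP4, EGR3, ABHD2 and UGCG. The following sites lie in the 3′ UTRs of the 4 members whose changes are given most fully below, all on the minus strand of GRCh37 and printed in transcript sense with the 7 matching bases in capitals. MREG holds several miR-301b matches, of which 2 are shown.
MREG, miR-301b, chr2:216808116-216808143: atatgcagggagtaTTGCACTgaagatc
MREG, miR-301b, chr2:216807872-216807899: tatttttacagattTTGCACTtctgaat
ADCY9, miR-181c, chr16:4013742-4013769: ttaaggtgtatattTGAATGTcctcccc
ADCY9, miR-181c, chr16:4013209-4013236: caatacttcagcatTGAATGTgtgtaaa
B4GALT1, miR-181c, chr9:33112761-33112788: gattgtctgatttcTGAATGTaaagttg
B4GALT1, miR-181c, chr9:33111981-33112008: tccattccccagcaTGAATGTgcctttt
CTSD, miR-331, chr11:1774119-1774146: ggactgagccagtcCCAGGGGcatgtat

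The perfect estrogen response element core, GGTCANNNTGACC, is its own reverse complement, so a search of one strand covers both. It was found within 5 kb of the transcription start of 2 of the 46 members (4.35%), GREB1 and CELSR2, and of 148 of 15453 genes tested (0.958%). Counted in bases from the start, the GREB1 match lies at -1505 and the CELSR2 match at -3120, both on the plus strand of GRCh37 and printed with the core in capitals.
GREB1, chr2:11672650-11672682: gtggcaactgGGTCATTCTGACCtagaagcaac
CELSR2, chr1:109789025-109789057: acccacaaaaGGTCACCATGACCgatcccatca
In the shorter RefSeq promoter windows, 250 bases before to 50 after the start (GRCh38.p14), 35 members were matched and 0 held the core, against 0.057% of 35116 promoters. A match is a description of letters, not evidence of receptor binding. Imperfect elements, and elements farther than 5 kb from the start, were not searched.

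Library totals ran from 31379962 to 50526442 counts, and levels are given as CPM, the count of a gene per 1000000 counts of its library after trimmed-mean scaling over all libraries. All 8 luminal markers fixed for the check (ESR1, PGR, GATA3, FOXA1, KRT8, KRT18, KRT19 and EPCAM) exceeded 1 CPM in every library. Of 9 markers of other cell types, 7 were below 1 CPM in every WT library, 6 in every Y537S library and 8 in every D538G library. The 9 together summed to 57.8 to 79.8 CPM in WT, 53.3 to 83.3 in Y537S and 48.4 to 79.1 in D538G, mostly COL1A1. The leukocyte markers PTPRC and CD3E reached at most 0.178 and 0.711 CPM in any library. VIM, a mesenchymal marker, stood at 0.244 and 0.239 CPM in the WT mimic controls, 0.413 and 1.46 in Y537S and 0.0275 and 0.298 in D538G. TP63, a basal marker, stood at 7.32 and 3.58 CPM in the WT control libraries, against 0.207 and 0.471 in Y537S and 0.549 and 0.776 in D538G. The parts of VIM and TP63 in the genotype comparisons were not tested. The canonical transcripts of 10 members overlap another gene of the tables, 7 of them on the opposite strand. The strand setting of the counting is not given in the sources used here, so values of SVIL (747 to 2026 counts, beside 594 to 1123 for SVIL-AS1) and RERG (638 to 1782, beside 79 to 211 for RERG-AS1) are uncertain. So are those of SGK3, which overlaps C8orf44-SGK3, NBL1, which overlaps MINOS1-NBL1, and AREG and PDZK1, which have near-identical copies in the genome. In these bulk samples, fewer cells of a type and less RNA per cell cannot be told apart.

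In hormone-deprived cells with the mimic negative control, the members spanned a wide range of levels. Per kilobase of transcript, AGR2, a protein disulfide isomerase of the secretory pathway, was highest in WT with a mean of 381 CPM per kb and in Y537S with 487, while CTSD, the lysosomal protease cathepsin D, was highest in D538G with 426. FKBP4, a co-chaperone of steroid receptors, ranked 3 in all 3 genotypes, with 133 CPM per kb in WT, 265 in Y537S and 242 in D538G. The lowest members in WT were ELOVL2, with 0.0068, SGK3, with 0.0538, and EGR3, with 0.0541 CPM per kb. The order among members shifted between genotypes: CXCL12 had rank 20 in WT and rank 6 in both mutants, OLFM1 rank 28 in WT and rank 8 in Y537S, and SERPINA1 rank 8 in WT and rank 22 in both mutants.

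**Figure D1:**
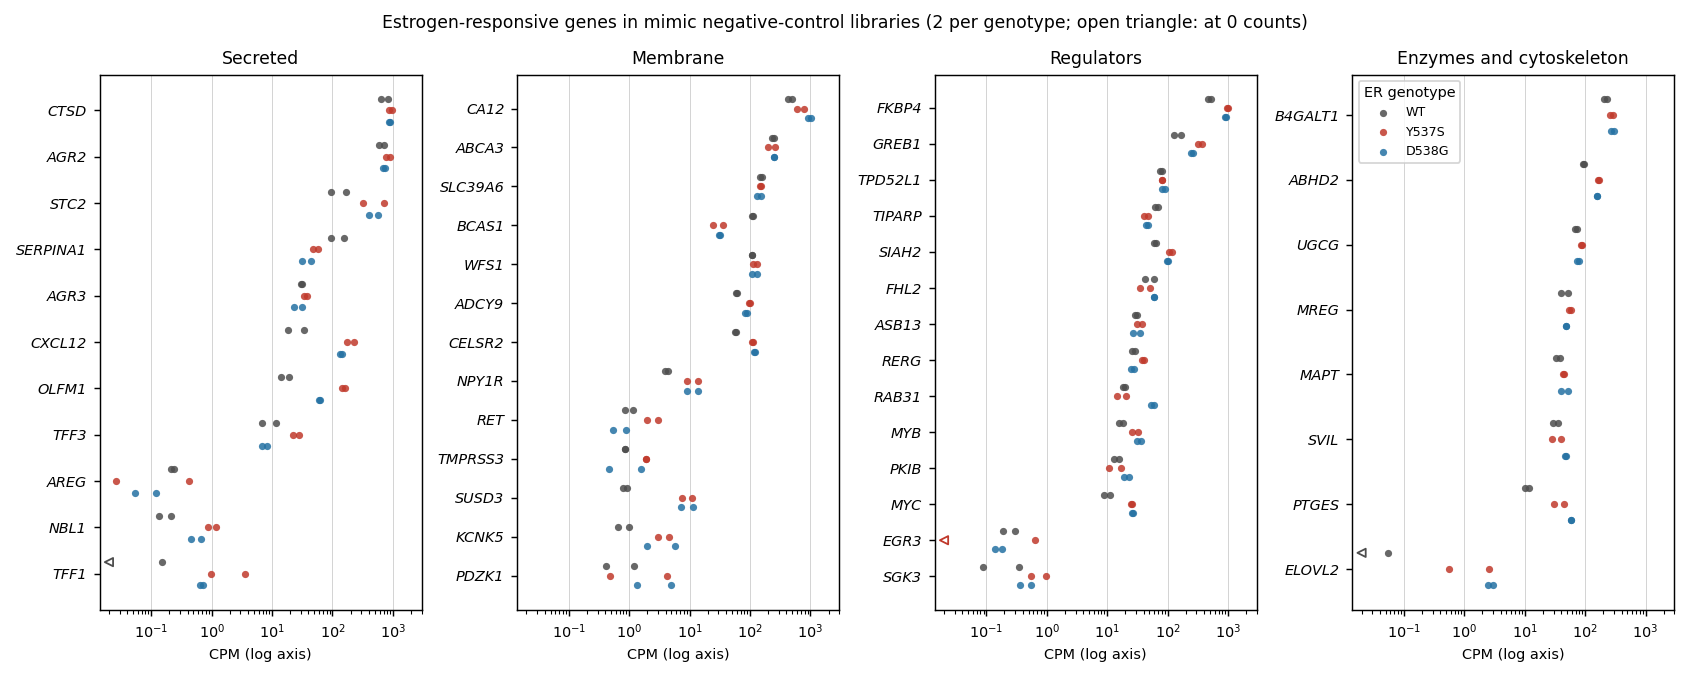
Level of each of the 46 members in the 6 mimic negative control libraries, in CPM on a log axis, grouped by role, with 1 point per clone and open triangles for 0 counts. The secreted members CXCL12 and OLFM1 and the membrane protein SUSD3 stand higher in both clones of each mutant than in the WT clones, and BCAS1, SERPINA1 and TIPARP stand lower.

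The first comparison asked how far the members differed between genotypes without added hormone or miRNA. In the Y537S clones, 24 of 45 members tested were higher than in WT and 3 were lower, beside 16.3% of all genes tested called higher and 12.7% called lower. In the D538G clones, 23 of 44 were higher and 3 lower, beside 20.4% and 18.5%. The median log2 difference was 0.73 across the members tested and -0.003 across all genes tested in Y537S, and 0.55 across the members tested and -0.001 across all genes tested in D538G. A gene was called at a Benjamini-Hochberg adjusted p below 0.05 over all genes tested with edgeR's quasi-likelihood test. Both comparisons use the same WT libraries, so their values are given side by side and their agreement is not read as support. The receptor gene itself was measured at 117 and 115 CPM in WT, 257 and 168 in Y537S and 242 and 239.7 in D538G, higher in Y537S (log2 fold change 0.88, SE 0.17, adjusted p = 0.00907) and in D538G (log2 fold change 1.04, SE 0.066, adjusted p = 1.2e-05); its part in the members' differences was not tested. Of the 4 fits of Y537S against WT that each left out 1 library, 19 members were called in all, MYB, CA12 and TIPARP in 3, RERG, UGCG and NBL1 in 2 and RET and B4GALT1 in 1, while 12.1% to 39.3% of all genes tested were called. When 1 library at a time was left out of D538G against WT, in 4 fits, 21 members were called in all, B4GALT1 and KCNK5 in 3 and TFF1, PDZK1 and PKIB in 2, while 26.2% to 36.8% of all genes tested were called. Values below are for clone 1 then clone 2 in Y537S, A5 then C2 in D538G and D1 then D4 in WT.

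Among the 11 secreted proteins, 6 of 10 tested were higher and 1 lower in Y537S, and 4 higher and 1 lower in D538G. CXCL12, the chemokine ligand of CXCR4, was measured at 18.5 and 34.1 CPM in WT, 172 and 227 in Y537S and 142 and 135 in D538G, which is a log2 difference of 2.94 (SE 0.27, adjusted p = 0.000432) in Y537S and 2.38 (SE 0.22, adjusted p = 5.51e-05) in D538G. All mutant libraries lay above both WT libraries. Such separation, in either direction, held for 36 of 46 members in Y537S and 34 in D538G, beside 68.7% and 71.7% of all genes tested. Between Y537S and D538G it held for 26 members, beside 54.9%. In these and later counts of separation, the 46 include members too low to be tested, whereas the share covers tested genes only. OLFM1, a secreted olfactomedin-domain glycoprotein, stood at 14.1 and 19.4 CPM in WT, 145 and 161 in Y537S and 61.3 and 60.0 in D538G, with no overlap between any of the 3 genotypes. TFF1, the trefoil factor long used as a marker of receptor activity, was low in all clones at 0 and 0.149 CPM in WT, 3.54 and 0.965 in Y537S and 0.631 and 0.716 in D538G, and its WT level rested on 5 counts in all; the ratio of summed counts per library size was 30.9 in Y537S (95% exact interval 13 to 96.2) and 9.46 in D538G (3.78 to 30.5), intervals that cover counting error only. The Y537S clones differed from each other in TFF1, clone 1 being the higher. TFF3, another trefoil factor, was measured at 6.86 and 11.6 CPM in WT, 28.4 and 22.4 in Y537S and 6.84 and 8.3 in D538G: it was higher in Y537S (1.47, adjusted p = 0.00518), whereas in D538G the value was -0.30 and the libraries overlapped those of WT. STC2, the stress-induced glycoprotein stanniocalcin 2, rose to 702 and 318 CPM in Y537S and 409 and 557 in D538G from 94.5 and 167 in WT. NBL1, a secreted antagonist of bone morphogenetic proteins, was near the detection limit at 0.136 and 0.209 CPM in WT, 1.16 and 0.871 in Y537S and 0.659 and 0.448 in D538G, and was called in Y537S (2.56, adjusted p = 0.0157). SERPINA1, the protease inhibitor α1-antitrypsin, went the other way, with 95 and 157 CPM in WT, 48.4 and 57.7 in Y537S and 31.3 and 44.2 in D538G, log2 differences of -1.23 and -1.75. CTSD was not called, with 637 and 824 CPM in WT, 949 and 871 in Y537S and 878 and 871 in D538G. Neither were AGR2 (0.37 in Y537S and 0.10 in D538G) nor its relative AGR3 (0.21 and -0.23), and the EGF-receptor ligand amphiregulin, AREG, was too low to be tested.

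Of the 13 membrane-associated members, 7 were higher and 1 lower in Y537S, with the same counts in D538G. The largest difference was in SUSD3, a sushi-domain membrane protein, at 0.922 and 0.806 CPM in WT, 10.9 and 7.37 in Y537S and 7.22 and 11.3 in D538G (log2 3.41 and 3.40). KCNK5, a potassium channel, stood at 1.0 and 0.657 CPM in WT, 3.05 and 4.54 in Y537S and 2.0 and 5.73 in D538G, and NPY1R, a receptor for neuropeptide Y, at 4.45 and 3.91 CPM in WT, 13.6 and 9.04 in Y537S and 9.14 and 13.9 in D538G; in both the mutant libraries lay above the WT libraries while the clones of a mutant differed. CELSR2, an atypical cadherin and a member with a perfect response element upstream, was tight within genotypes at 57.4 and 57.6 CPM in WT, 114 and 107 in Y537S and 115 and 119 in D538G (0.95, SE 0.083, and 1.01, SE 0.075). CA12 was measured at 502 and 422 CPM in WT, 785 and 591 in Y537S and 905 and 1009 in D538G, log2 0.59 in Y537S and 1.04 in D538G, and the adenylate cyclase ADCY9 at 58.5 and 60.9 CPM in WT, 98.2 and 97.9 in Y537S and 82.3 and 90.6 in D538G. RET, a receptor tyrosine kinase, was called in Y537S (1.31, adjusted p = 0.0432), with -0.53 in D538G. PDZK1, a scaffold of membrane transporters, differed more between clones than most, at 1.19 and 0.418 CPM in WT, 0.491 and 4.21 in Y537S and 1.35 and 4.98 in D538G: its difference was called in D538G (1.94, adjusted p = 0.0397) and not in Y537S, where clone 1 overlapped WT. BCAS1, a gene amplified in some breast cancers, was the member with the lowest log2 difference in both mutants, at 106 and 111 CPM in WT, 23.9 and 36 in Y537S and 30.3 and 31.8 in D538G (log2 fold change -1.84, SE 0.18, adjusted p = 0.000571 in Y537S, and log2 fold change -1.82, SE 0.082, adjusted p = 2.58e-06 in D538G). The lipid transporter ABCA3, the zinc transporter SLC39A6, the endoplasmic reticulum protein WFS1 and the serine protease TMPRSS3 were not called; SLC39A6, for instance, stood at 155 and 148 CPM in WT, 151 and 147 in Y537S and 133 and 151 in D538G.

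Among the 14 regulators, 6 of 14 tested were higher and 1 lower in Y537S, and 7 of 13 higher and 1 lower in D538G. GREB1 is a cofactor of the receptor and the other member with a perfect response element core within 5 kb of its start. It was measured at 128 and 169 CPM in WT, 372 and 317 in Y537S and 248 and 262 in D538G. The edgeR log2 fold change was 1.23 (SE 0.14, adjusted p = 0.000994) in Y537S and 0.77 (SE 0.12, adjusted p = 0.000829) in D538G. The genotypes did not overlap, and Y537S was the highest. MYC, the growth-promoting transcription factor, stood at 9.03 and 11.1 CPM in WT, 26 and 25.2 in Y537S and 25.8 and 26.6 in D538G, log2 1.36 (adjusted p = 0.000879) and 1.36 (adjusted p = 9.85e-05). FKBP4 was higher in both mutants, with 469 and 522 CPM in WT, 1011 and 959 in Y537S and 886 and 915 in D538G (log2 1.01 and 0.85). The transcription factor MYB (0.78 and 0.98) and the ubiquitin ligase SIAH2 (0.91 and 0.69) were higher in both. RAB31, a small GTPase of vesicle traffic, stood at 18 and 19.8 CPM in WT, 20.2 and 14.4 in Y537S and 58.9 and 53.3 in D538G and was called in D538G, while RERG, a growth-inhibiting Ras-like protein, stood at 25.6 and 28.7 CPM in WT, 37.1 and 40.8 in Y537S and 28.2 and 25 in D538G and was called in Y537S. PKIB, an inhibitor of protein kinase A, was called in D538G (0.55; -0.02 in Y537S). TIPARP, a poly(ADP-ribose) polymerase induced by the aryl hydrocarbon receptor, was lower in both, at 70.5 and 62.7 CPM in WT, 40.7 and 47.8 in Y537S and 46.7 and 44.2 in D538G. The LIM-domain cofactor FHL2, the ubiquitin ligase subunit ASB13 and the tumor protein D52-like TPD52L1 were not called, with log2 values from -0.23 (FHL2, Y537S) to 0.23 (FHL2, D538G). The kinase SGK3 and the early growth response factor EGR3 stayed below 1 CPM in every mimic control library.

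The enzymes and cytoskeletal members showed 5 of 8 higher and 0 lower in each mutant. ELOVL2, an elongase of polyunsaturated fatty acids, held 2 counts in the WT control libraries together. It stood at 0.568 and 2.57 CPM in Y537S and 2.5 and 3.01 in D538G. The ratio of summed counts per library size was 56.8 in Y537S (95% exact interval 15.4 to 474) and 96.6 in D538G (26.4 to 804). These intervals cover counting error only, and the Y537S clones differed from each other. PTGES, the prostaglandin E synthase, rose to 30.3 and 45 CPM in Y537S and 59.5 and 58 in D538G from 10.2 and 11.6 in WT (log2 fold change 2.42, SE 0.11, adjusted p = 2.58e-06 in D538G). ABHD2, a lipid hydrolase, stood at 96.5 and 90.5 CPM in WT, 163 and 167 in Y537S and 158 and 157 in D538G, and the galactosyltransferase B4GALT1 at 202 and 233 CPM in WT, 289 and 253 in Y537S and 264 and 297 in D538G, a smaller difference called in both mutants. SVIL, an actin-binding protein, was called in D538G (0.55; 0.09 in Y537S) and UGCG, the glucosylceramide synthase, in Y537S (0.30; 0.08 in D538G). The microtubule protein MAPT and the melanosome transport regulator MREG were not called, with 40.2 and 51.4 CPM in WT, 54.5 and 57.3 in Y537S and 48.6 and 48.2 in D538G for MREG.

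**Figure D2:**
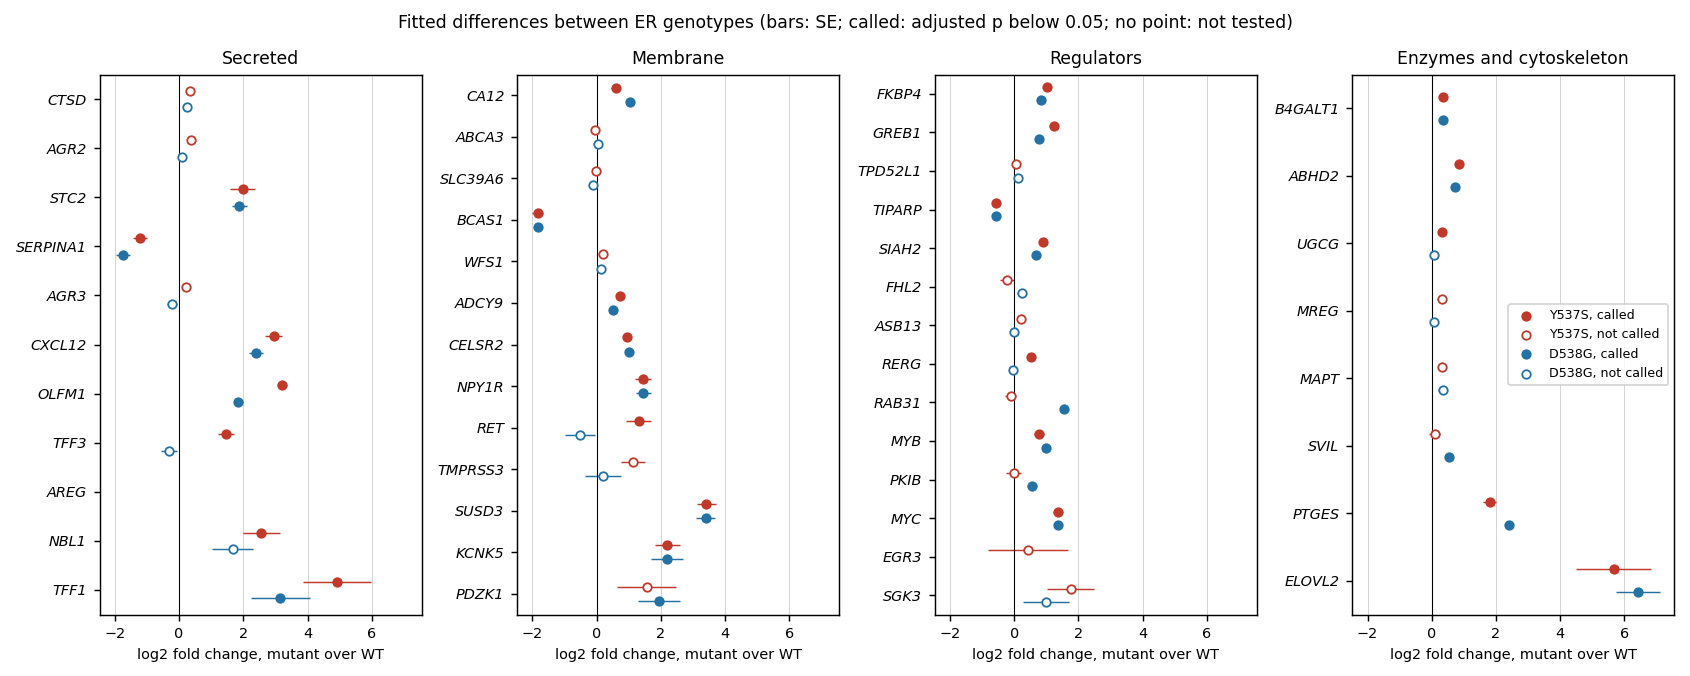
Difference of each tested member between the mutant and WT control libraries, as log2 fold change with its standard error, with filled points for adjusted p below 0.05. Most called members lie right of 0 in both mutants, from UGCG at 0.30 to ELOVL2 at 6.42, and BCAS1, SERPINA1 and TIPARP lie left of it.

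Compared directly, the mutants differed in few members. In Y537S against D538G, 4 members were higher and 1 lower of 44 tested, beside 3.93% of all genes tested higher and 2.26% lower. TFF3 (log2 fold change 1.77, SE 0.17, adjusted p = 0.00413), OLFM1 (log2 fold change 1.36, SE 0.097, adjusted p = 0.00287), RERG (0.57, adjusted p = 0.0388) and GREB1 (0.45, adjusted p = 0.0379) were higher in Y537S, and RAB31 was lower (log2 fold change -1.68, SE 0.16, adjusted p = 0.00403). ESR1 was -0.16 (adjusted p = 0.612). Leaving out 1 library at a time gave 3 called members without either D538G library, beside 1.39% and 2.3% of all genes, and 12 without either Y537S library, beside 11.5% and 10.7%, so this count depended on single libraries. Over 4 fits of Y537S against D538G without 1 library each, TFF3, OLFM1 and RAB31 were called in all, and GREB1 and RERG in 2, while 1.39% to 11.5% of all genes tested were called.

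The miR-301b-3p mimic was given to all 3 genotypes, and the comparison with the mimic control asks which members moved. Within a genotype, each mimic was set against the same 2 control libraries, which also enter the genotype comparisons. Changes that recur between mimics of 1 genotype are therefore not independent. MREG, which holds seed matches, and CA12, which holds none, fell in all 3 genotypes. MREG was measured at 18.2 and 19.9 CPM in Y537S with the mimic against 54.5 and 57.3 with the control (log2 fold change -1.58, SE 0.11, adjusted p = 0.0193), at 23.7 and 22.3 against 48.6 and 48.2 in D538G (log2 fold change -1.08, SE 0.099, adjusted p = 0.00181) and at 16.7 and 18.9 against 40.2 and 51.4 in WT (log2 fold change -1.37, SE 0.14, adjusted p = 0.00244). In each genotype, both libraries with the mimic lay below both controls. CA12 was measured at 338 and 316 CPM against 785 and 591 in Y537S (log2 fold change -1.10, SE 0.14, adjusted p = 0.0255), 591 and 558 against 905 and 1009 in D538G (log2 fold change -0.74, SE 0.082, adjusted p = 0.00243) and 265 and 241 against 502 and 422 in WT (log2 fold change -0.87, SE 0.098, adjusted p = 0.00367), again without overlap. The 3 comparisons share no library. No overlap was found for 25 of 46 members in Y537S, 28 in D538G and 18 in WT, where 45, 44 and 41 were tested. Among all genes tested it was 53.2%, 58.2% and 56.8%. All 6 members that fell in Y537S also fell in D538G, where 12 fell. The 3 that fell in WT included 2 of the 6 and 3 of the 12. The share of all genes called in several genotypes was not counted, so these overlaps are descriptions without a background.

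In Y537S, 6 of 45 members tested fell and 0 rose, beside 2.34% of all genes tested lower and 1.23% higher, and the median log2 fold change was -0.20 across the members tested and 0.01 across all genes tested. CXCL12 dropped to 67.4 and 98.4 CPM from 172 and 227 (log2 fold change -1.29, SE 0.22, adjusted p = 0.0416), and MYC to 14.1 and 14.9 from 26 and 25.2 (log2 fold change -0.85, SE 0.12, adjusted p = 0.0306). GREB1 stood at 236 and 213 against 372 and 317 CPM (-0.64, adjusted p = 0.0394) and FKBP4 fell by 0.53 on the log2 scale (adjusted p = 0.0299). Of the 39 members not called, values ran from -1.43 (SGK3) to 1.39 (AREG). ESR1 stood at 132 and 89.9 against 257 and 168 CPM (-0.95, adjusted p = 0.092; called with the clone as a block); its part in the members' changes was not tested. With the clone as a block, 6 members rose and 19 fell, against 18.4% of all genes tested higher and 20.0% lower. After correction for GC content the members' median was -0.25 and 1 member, MREG, was called, with 0.152% of all genes tested. Without the control library of clone 1 the count was also 1, with 0.121% of all genes called and a members' median of -0.26. Of the 4 fits that each left out 1 library, MREG was called in all, CA12 in 3, GREB1 and CXCL12 in 2 and MYC and FKBP4 in 0, while 0.121% to 1.9% of all genes tested were called.

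In D538G, 12 of 44 members tested fell and 1 rose, beside 6.49% of all genes tested lower and 5.29% higher, with a median log2 fold change of -0.21 across the members tested and 0.01 across all genes tested. Among the secreted members, CXCL12 dropped to 72.1 and 46.1 CPM from 142 and 135 (log2 fold change -1.23, SE 0.17, adjusted p = 0.00468), STC2 by 0.76 and OLFM1 by 0.58 on the log2 scale. NPY1R was measured at 5.98 and 6.36 against 9.14 and 13.9 CPM (log2 fold change -0.90, SE 0.22, adjusted p = 0.0309), and SLC39A6 fell by 0.37. Among the regulators, MYB (-0.79), MYC (-0.73), GREB1 (-0.48), FKBP4 (-0.38) and SIAH2 (-0.29) fell. GREB1 stood at 190.2 and 177 CPM against 248 and 262. CTSD, with a transcript of 63.6% GC, was called higher (0.27, edgeR adjusted p = 0.0358), and its GC-corrected value was -0.05. The part of GC content was not tested. ESR1 fell as well, to 149.9 and 115 from 242 and 239.7 CPM (log2 fold change -0.87, SE 0.12, adjusted p = 0.00466), and its part in the members' changes was not tested. Blocking by clone gave 4 members higher and 17 lower, beside 16.4% and 16.9% of all genes tested. When 1 library at a time was left out, in 4 fits, GREB1, CXCL12, MYB, MYC, CA12, STC2, OLFM1, FKBP4 and MREG were called in all, CTSD, NPY1R and SLC39A6 in 1 and SIAH2 in 0, while 4.86% to 13.6% of all genes tested were called.

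In WT, 3 of 41 members tested fell and 2 rose, beside 3.87% of all genes tested lower and 4.63% higher, with a median of -0.08 across the members tested and 0.000 across all genes tested. Besides MREG and CA12, the zinc transporter SLC39A6 fell to 118 and 108 CPM from 155 and 148 (log2 fold change -0.43, SE 0.082, adjusted p = 0.0201). The members that rose were CELSR2, at 75.1 and 77.2 against 57.4 and 57.6 (0.40, adjusted p = 0.0221), and WFS1 (0.30, adjusted p = 0.044), neither called after GC correction (0.15 and 0.04). ESR1 fell to 72.2 and 70.4 from 117 and 115 CPM (log2 fold change -0.70, SE 0.076, adjusted p = 0.00321). GREB1 (113 and 161 against 128 and 169 CPM) and CXCL12 (9.02 and 19.3 against 18.5 and 34.1) were not called, and their libraries overlapped. CXCL12 was lower in each clone (-0.91 over both), and the fit with the clone as a block called it lower. In the fit that pairs libraries of 1 clone, 8 members rose and 8 fell, beside 14.0% and 14.2% of all genes. Without the D1 mimic library 11 members and 16.7% of all genes were called, with a members' median of 0.06, and without the D4 mimic library 9 members and 7.58%, with a median of -0.22. Over 4 fits without 1 library each, CA12 and MREG were called in all, SLC39A6 in 3 and CELSR2 and WFS1 in 2, while 4.35% to 16.7% of all genes tested were called.

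Whether the response to miR-301b differed between a mutant and WT was tested as an interaction. Between Y537S and WT 0 members were called, with 0.00632% of all genes tested (2 members had an unadjusted p below 0.05, and DESeq2 called 0); with the clone as a block 2 members were called, beside 0.202%, STC2 (-0.52) and GREB1 (-0.50), both responding more steeply downward in Y537S. Between D538G and WT 0 were called (0.00640% of all genes; 1 member at an unadjusted p below 0.05 and 0 by DESeq2), and 0 with the block (0.147%).

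The miR-331-3p mimic was given to Y537S and WT clones. CTSD, ABCA3 and WFS1 rose in both, 3 of the 10 members that rose in Y537S and 3 of the 4 in WT. The share of all genes that rose in both was not counted. CTSD, which holds a single seed match, reached 2314 and 1962 CPM in Y537S against 949 and 871 with the control (log2 fold change 1.25, SE 0.10, adjusted p = 0.00605) and 952 and 1152 against 637 and 824 in WT (log2 fold change 0.55, SE 0.11, adjusted p = 0.00537). In both genotypes the mimic libraries lay above the controls. Mimic and control libraries did not overlap for 25 of 46 members in Y537S and 17 in WT, beside 69.8% and 62.9% of all genes tested. CTSD, ABCA3 and WFS1 have GC-rich transcripts (60.4% to 63.6%, against a median of 48.9% over all genes tested). Correction for GC content lowered the value of CTSD to 0.87 in Y537S and 0.15 in WT, where it was no longer called. The part of GC content in these changes was not tested.

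In Y537S, 10 of 46 members tested rose and 0 fell. All genes tested were called higher in 17.2% and lower in 15.8%, so the share of members that rose (10 of 46) stood near the background while none was called lower. The median log2 fold change was 0.28 across the members tested and -0.01 across all genes tested. TFF3 rose to 84.7 and 62.6 CPM from 28.4 and 22.4 (log2 fold change 1.55, SE 0.19, adjusted p = 0.00665), and remained called after GC correction (1.36). WFS1 stood at 247 and 212 against 129.6 and 113 CPM (log2 fold change 0.94, SE 0.12, adjusted p = 0.00693; GC-corrected 0.58), ABCA3 at 442 and 350.0 against 263 and 202 (log2 fold change 0.79, SE 0.17, adjusted p = 0.0202; GC-corrected 0.44, not called). B4GALT1 (0.67), FKBP4 (0.55), ASB13 (0.53), SERPINA1 (0.52), AGR2 (0.43) and MYC (0.43) made up the rest; B4GALT1 and SERPINA1 hold a miR-331 match. MYC was measured at 33.8 and 34.4 CPM against 26 and 25.2. GREB1 (309.5 and 275 against 372 and 317 CPM, -0.22) and CXCL12 (185 and 228 against 172 and 227, 0.07) were not called; with the clone as a block GREB1 was called lower. ESR1 was -0.33 (adjusted p = 0.388), called lower with the block. With the clone as a block, 22 members rose and 7 fell, against 30.5% of all genes tested higher and 30.2% lower. Of the 4 fits that each left out 1 library, TFF3, FKBP4, ABCA3, CTSD, B4GALT1 and WFS1 were called in all, AGR2, ASB13 and SERPINA1 in 2 and MYC in 0, while 20.2% to 31.1% of all genes tested were called.

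In WT, 4 of 42 members tested rose and 5 fell, beside 14.2% of all genes tested higher and 10.6% lower, with a median of 0.01 across the members tested and -0.002 across all genes tested. The members that fell did so by little: ABHD2 stood at 67.2 and 78.1 against 96.5 and 90.5 CPM (log2 fold change -0.34, SE 0.079, adjusted p = 0.0102), SVIL changed by -0.34, TIPARP by -0.23, BCAS1 by -0.21 and SLC39A6 by -0.19. Of these, ABHD2 holds a miR-331 match. Of those that rose, WFS1 was at 135 and 133 against 106 and 108 CPM (log2 fold change 0.34, SE 0.060, adjusted p = 0.00257), ABCA3 was at 0.23 and CELSR2 at 0.23. After GC correction none of these 9 members was called; 2 others were, UGCG (higher) and ADCY9 (lower), with 7.59% of all genes tested. The corrected values were 0.03 for WFS1, -0.04 for ABCA3 and -0.09 for CELSR2, the last 2 with the sign turned. ESR1 fell from 117 and 115 to 86.8 and 91.3 CPM (log2 fold change -0.36, SE 0.063, adjusted p = 0.00253), and its part was not tested. Blocking by clone gave 8 members higher and 8 lower, beside 19.8% and 17.2% of all genes tested. Without the D1 mimic library 3 members and 9.97% of all genes were called, and without the D1 control library 4 and 16.5%. When 1 library at a time was left out, in 4 fits, CTSD and WFS1 were called in all, ABHD2 in 3, ABCA3, SVIL, TIPARP, SLC39A6 and BCAS1 in 1 and CELSR2 in 0, while 9.97% to 23.2% of all genes tested were called.

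The difference between the Y537S and WT responses to miR-331 was called for 2 members, beside 9.94% of all genes tested. FKBP4 responded more in Y537S than in WT (difference of log2 fold changes 0.55, SE 0.13, adjusted p = 0.0328; GC-corrected 0.41, adjusted p = 0.0804), with 1513 and 1329 against 1011 and 959 CPM in Y537S and 461 and 501 against 469 and 522 in WT. WFS1 differed likewise (0.58, SE 0.13, adjusted p = 0.0334; GC-corrected 0.54, adjusted p = 0.0214). With the clone as a block 18 members were called, beside 34.1%.

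The miR-181c-5p mimic was given to D538G and WT clones. The members ADCY9, B4GALT1 and GREB1 fell in both, 3 of the 8 that fell in D538G and 3 of the 5 in WT. These comparisons have no shared library, but the share of all genes that fell in both was not counted. ADCY9, with 2 seed matches, dropped to 52.5 and 50.2 CPM from 82.3 and 90.6 in D538G (log2 fold change -0.75, SE 0.085, adjusted p = 0.00222) and to 29 and 34.5 from 58.5 and 60.9 in WT (log2 fold change -0.93, SE 0.10, adjusted p = 0.000387). B4GALT1, also with 2, stood at 200.3 and 196 against 264 and 297 in D538G (log2 fold change -0.50, SE 0.078, adjusted p = 0.0069) and at 124 and 158 against 202 and 233 in WT (log2 fold change -0.64, SE 0.11, adjusted p = 0.00505). GREB1, which holds no miR-181c match, stood at 173 and 163 against 248 and 262 CPM in D538G (log2 fold change -0.60, SE 0.074, adjusted p = 0.0032) and at 85 and 118 against 128 and 169 in WT (log2 fold change -0.56, SE 0.15, adjusted p = 0.0342). For these 3 members every mimic library lay below both controls of its genotype. Libraries were apart in either direction for 28 of 46 members in D538G and 17 in WT, beside 54.9% and 58.6% of all genes tested. ESR1 fell in both too, to 174 and 142 from 242 and 239.7 CPM in D538G (-0.60, adjusted p = 0.0074) and to 76.5 and 71.9 from 117 and 115 in WT (-0.66, adjusted p = 0.000496), and its part in the members' changes was not tested.

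In D538G, 8 of 44 members tested fell and 1 rose, beside 3.95% of all genes tested lower and 5.58% higher, with a median of -0.16 across the members tested and -0.003 across all genes tested. KCNK5 had the lowest value, at 0.727 and 1.2 against 2.0 and 5.73 CPM (edgeR log2 fold change -2.00, SE 0.49, adjusted p = 0.0335). It holds a miR-181c match in its 3′ UTR, and its control clones differed from each other. With miR-181c in WT its value was -0.027. With miR-301b in D538G, against the same controls and without a miR-301b match, it was -1.555. Neither was called in the fit without the block. CXCL12, which also holds a match, dropped to 97.9 and 72.1 from 142 and 135 CPM (log2 fold change -0.69, SE 0.13, adjusted p = 0.0119). OLFM1 (-0.37), FKBP4 (-0.29) and CA12 (-0.28) fell by less. CTSD was called higher (0.24; GC-corrected -0.08). Here the other 35 members tested ran from -1.21 (PDZK1) to 0.52 (RET). In the fit that pairs libraries of 1 clone, 4 members rose and 17 fell, beside 15.6% and 13.6% of all genes. The count was 5 without the A5 mimic library, with 6.15% of all genes called, and 4 without the C2 mimic library, with 2.34%. Over 4 fits without 1 library each, GREB1, CXCL12, ADCY9 and B4GALT1 were called in all, CA12, OLFM1, FKBP4 and KCNK5 in 1 and CTSD in 0, while 2.34% to 11.8% of all genes tested were called.

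In WT, 5 of 40 members tested fell and 2 rose, beside 8.28% lower and 8.10% higher, with a median of -0.05 across the members tested and 0.01 across all genes tested. Besides the 3 members named, MYB fell to 11 and 10.2 from 15.7 and 18.4 CPM (log2 fold change -0.70, SE 0.14, adjusted p = 0.00879) and RERG to 18.1 and 22 from 25.6 and 28.7 (-0.45, adjusted p = 0.0341). CELSR2 (0.42; GC-corrected 0.17) and WFS1 (0.41; GC-corrected 0.15) rose, and neither was called after GC correction; WFS1 holds a miR-181c match, CELSR2 none. MYC stood at 9.12 and 12.7 against 9.03 and 11.1 CPM and CXCL12 at 17.2 and 27.6 against 18.5 and 34.1, both not called. With the clone as a block, 4 members rose and 8 fell, against 14.5% of all genes tested higher and 13.4% lower. Of the 4 fits that each left out 1 library, CELSR2, ADCY9 and B4GALT1 were called in all, MYB in 3, GREB1 and WFS1 in 2 and RERG in 1, while 5.75% to 15.6% of all genes tested were called. The interaction between D538G and WT was called for 0 members (0.00646% of all genes; 3 members at an unadjusted p below 0.05, 0 by DESeq2), and for 0 with the block (0.0775%).

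The let-7f inhibitor was given to the Y537S clones and compared with the inhibitor negative control. The quasi-likelihood test called 0 of 45 members and 0% of all genes tested, and 4 members had an unadjusted p below 0.05. DESeq2 called 1, AREG, lower with the inhibitor, beside 0.556% of the genes it gave an adjusted p. The median log2 fold change was -0.04 across the members tested and 0.01 across all genes tested. GREB1, which holds a let-7f match, was measured at 356 and 302 CPM against 346 and 312, TFF1 at 2.61 and 1.15 against 3.51 and 1.03, and MYC at 29.6 and 28.9 against 32 and 26.1. With the clone as a block, 3 rose and 7 fell (4.31% and 6.88% of all genes). The negative controls for inhibitors and for mimics were compared in the same clones. There, 0 of 46 members and 0% of all genes tested were called, and 6 members had an unadjusted p below 0.05. DESeq2 called 1, UGCG, beside 0.774% of the genes it gave an adjusted p. The block fit called 8 higher and 3 lower (8.87% and 7.84%).

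**Figure D3:**
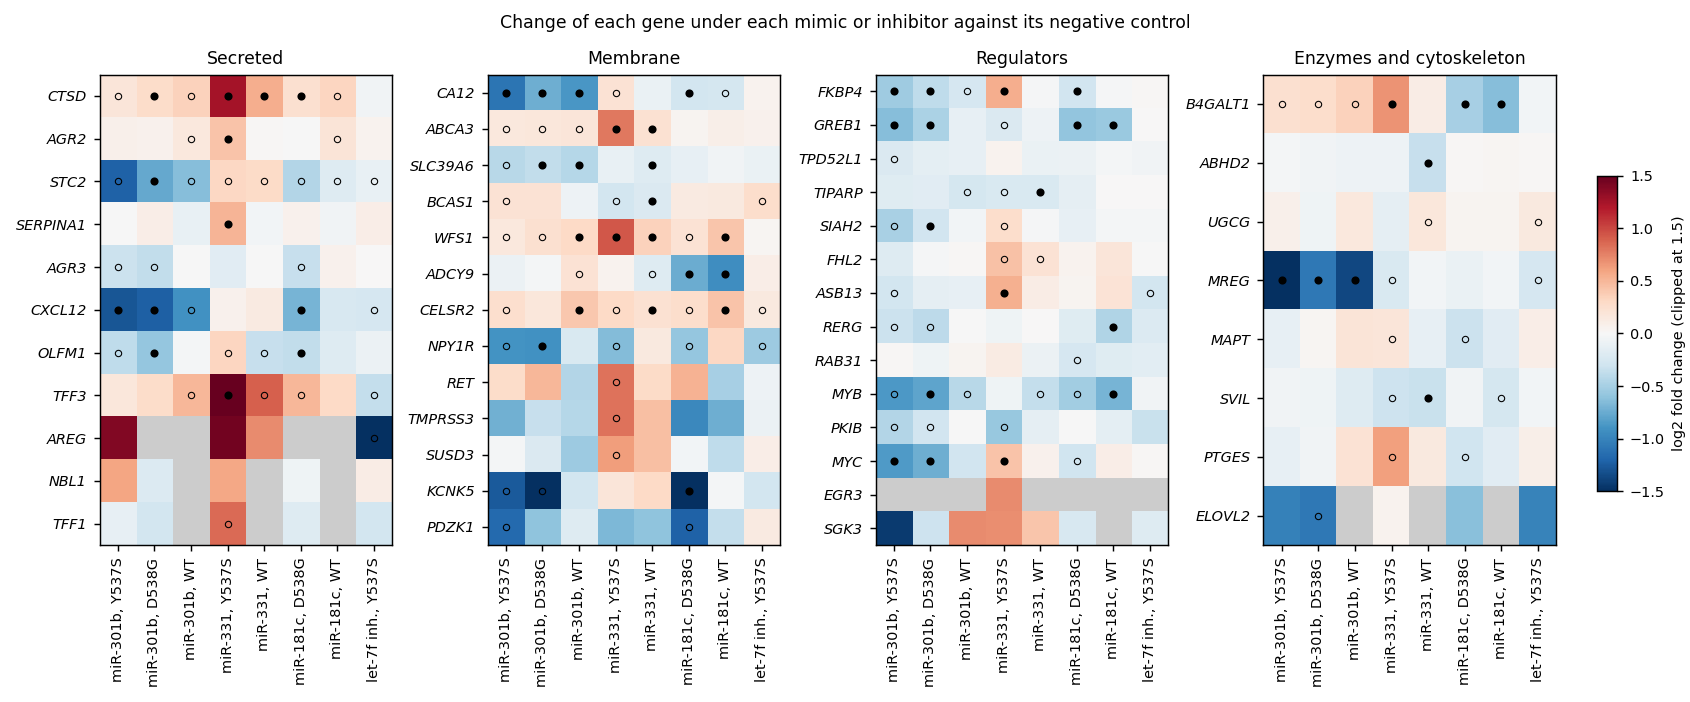
Log2 fold change of the 46 members in the 8 treatment comparisons, drawn from blue (lower) to red (higher) and limited to 1.5 in either direction. Filled dots mark adjusted p below 0.05, open dots genes that pass only in the fit blocked by clone, and grey cells were not tested. The column for miR-331 in Y537S holds 10 filled dots, all on rises, and that for miR-301b in D538G holds 12 on falls and 1 on a rise.

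**Figure D4:**
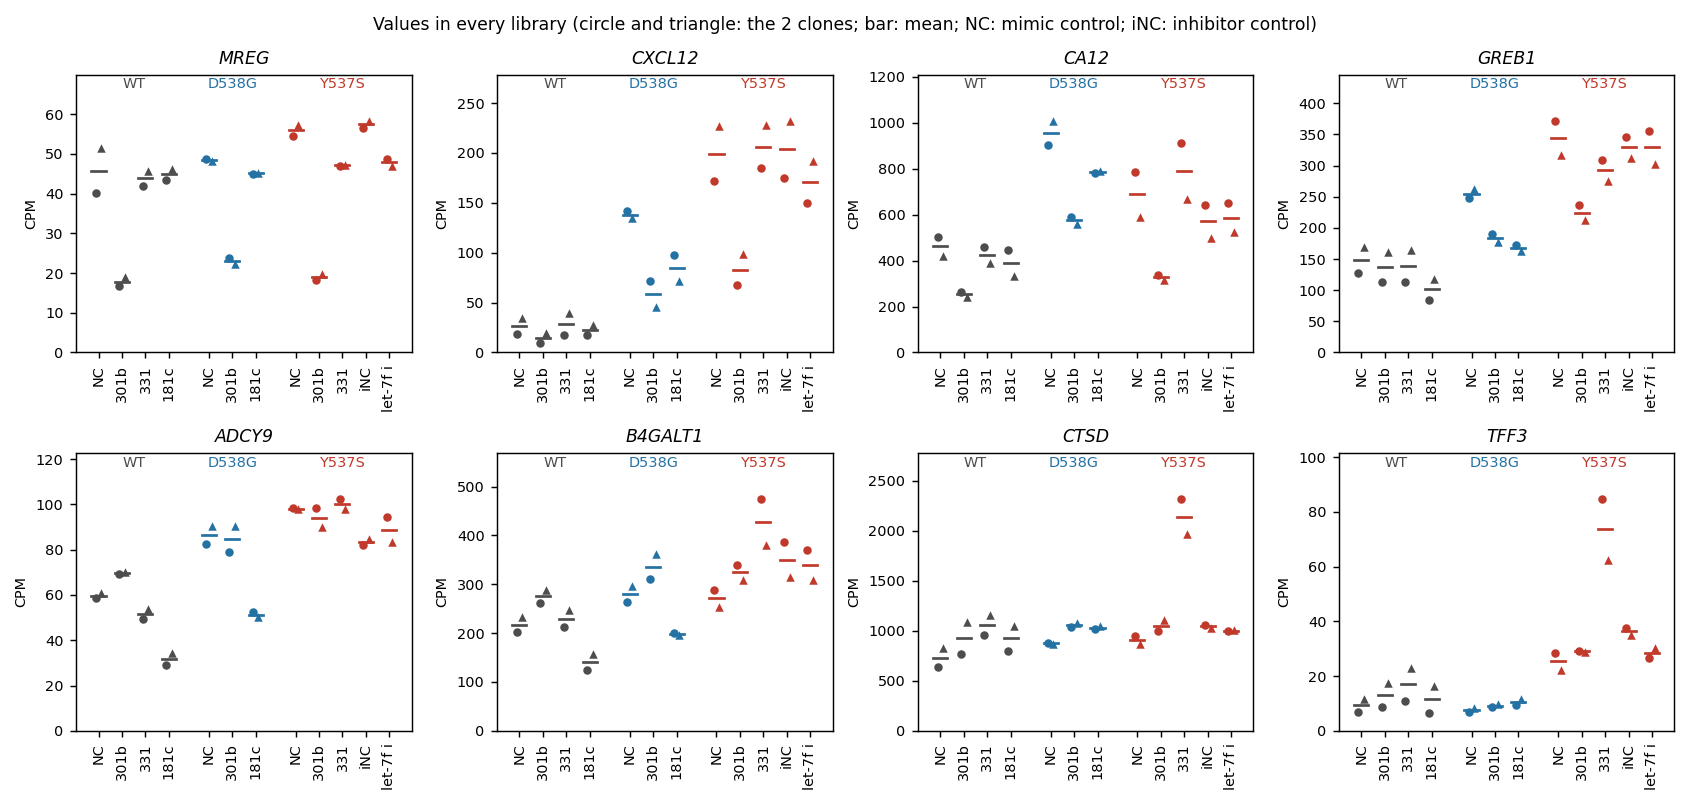
Level in CPM in each library for MREG, CXCL12, CA12, GREB1, ADCY9, B4GALT1, CTSD and TFF3, with a circle and a triangle for the 2 clones of a genotype and a bar at their mean. MREG drops below its controls with miR-301b in every clone, ADCY9 with miR-181c, and CTSD rises with miR-331.

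Members with a seed match were set beside those without, as a description. For miR-301b the median log2 fold change with and without a match was -0.86 (5 members) and -0.19 (40 members) in Y537S, -0.31 and -0.20 in D538G, and -0.08 and -0.09 in WT; over all genes tested it was -0.15 and 0.04 in Y537S, -0.14 and 0.03 in D538G, and -0.15 and 0.03 in WT. For miR-181c it was -0.38 and -0.11 in D538G and -0.17 and -0.03 in WT, beside -0.15 and 0.04, and -0.18 and 0.07, over all genes. For miR-331 in Y537S the members with a match stood higher than those without, at 0.61 (9 members) and 0.22, as did all genes at 0.14 and 0.00, and in WT the values were 0.12 and 0.00. For the let-7f inhibitor they were 0.02 (4 members) and -0.05.

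**Figure D5:**
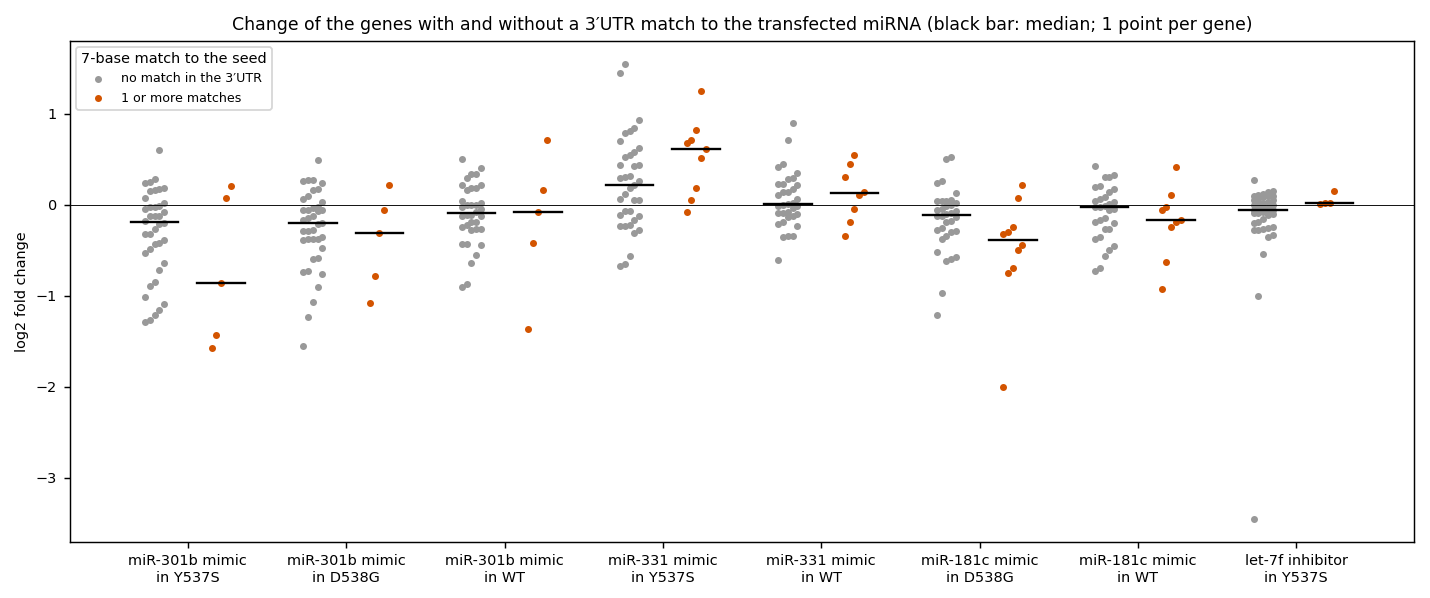
Log2 fold change of the members with and without a 7-base match to the seed in the 3′ UTR, for each treatment, with 1 point per tested member and a black bar at the median. For miR-301b in Y537S the medians lie at -0.86 with and -0.19 without a match. In D538G they lie at -0.31 and -0.20, and in WT at -0.08 and -0.09. For miR-331 they lie at 0.61 and 0.22 in Y537S and at 0.12 and 0.00 in WT.

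A separate list of 40 estrogen-response genes that are not members gave a wider background for the pathway. Between genotypes, 12 higher and 9 lower of 39 (median 0.13) were called in Y537S, beside 16.3% and 12.7% of all genes tested. In D538G it was 15 higher and 11 lower of 39 (median 0.10), beside 20.4% and 18.5%. Each median is on the log2 scale. With miR-301b the counts were 0 higher and 3 lower of 40 (median -0.04) in Y537S, beside 1.23% and 2.34% of all genes tested. They were 0 higher and 4 lower of 39 (median -0.03) in D538G, beside 5.29% and 6.49%. In WT they were 1 higher and 4 lower of 38 (median 0.04), beside 4.63% and 3.87%. With miR-331 they were 8 higher and 5 lower of 40 (median 0.18) in Y537S, beside 17.2% and 15.8% of all genes tested. In WT they were 7 higher and 2 lower of 39 (median 0.03), beside 14.2% and 10.6%. With miR-181c, 3 were higher and 6 lower of 39 (median 0.000) in D538G, beside 5.58% and 3.95%. In WT, 9 were higher and 8 lower of 39 (median 0.09), beside 8.10% and 8.28%. The let-7f inhibitor gave 0 higher and 0 lower of 40 (median 0.02), beside 0%.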

How the data were processed

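The authors aligned poly-A RNA-seq reads (KAPA Stranded mRNA-Seq kit, Illumina NovaSeq) to hg19 with HISAT2 and counted UCSC Known Genes with featureCounts; they deposited raw counts per gene, the unit used here. Tool versions, strand setting and multimapping handling are not given in the sources used here. Deposited columns were joined to conditions by their headings. The Y537S columns carry the clone numbers of the labels, whereas the D538G (A5, C2) and WT (D1, D4) columns were placed in their group only. Totals were 31379962 to 50526442 counts per library. Between the 2 libraries of a condition, the squared difference was on average over genes 11.2 to 48.3 times its sampling variance.

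Each comparison was fitted with edgeR 4.0.16 (glmQLFit and glmQLFTest, trimmed-mean scaling, filterByExpr) in R 4.3.3 on all genes of the tables, with the libraries of the groups compared only, and p-values were adjusted by Benjamini-Hochberg over all genes tested and called below 0.05. With 2 libraries against 2 the fit has 2 residual degrees of freedom (1 with the clone as a block), and an exact permutation test could not give a two-sided p below 0.333. Standard errors are the log2 fold change divided by the square root of F. Counts of members at an unadjusted p below 0.05 are printed without the share of all genes and are not read as calls. Log2 CPM used a prior count of 2. The same heading in different conditions is the same clone: the clone differences of a genotype correlated across conditions at 0.41 to 0.49 in Y537S, 0.15 to 0.22 in D538G and 0.11 to 0.18 in WT, so the clone pairs the libraries, and the fit with the clone as a replicate block is printed beside a count that it moves by more than 1.5 times. For the GC correction, the lowess trend (span 0.3) of log2 CPM on transcript GC was removed per library. A response that follows GC content is removed with it. DESeq2 1.42.0, other size factors, no filter and leaving out each library were the further alternatives. Scripts were tested on simulated data. Transcripts, lengths and sites came from GENCODE on GRCh37, not the authors' annotation: 22494 genes matched by symbol, 1351 by a RefSeq synonym and 2519 did not. A further sequence is not reported here.

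All 46 members are named by role. GREB1, TFF1, PDZK1, CXCL12, MYC, CTSD and ESR1 are given in every mimic control library, and in each comparison up to 4 called members with the largest rise and 4 with the largest fall. The members and lists were chosen with earlier results of these data known.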

Additional observations from a re-analysis of the deposited data

Results flagged for a closer look

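The response of FKBP4 to the miR-331-3p mimic differed between Y537S and WT by 0.549 on the log2 scale (SE 0.13, edgeR adjusted p = 0.0328), and was listed because the interaction itself was tested and called. Its GC-corrected value was 0.41, with adjusted p = 0.0804. WFS1 was listed for the same reason, with a difference of 0.576 (SE 0.13, edgeR adjusted p = 0.0334) and a GC-corrected value of 0.54 (adjusted p = 0.0214). FKBP4 and WFS1 were 2 of 46 members tested (4.35%), beside 9.94% of all genes tested, so members were called less often than all genes. Groups of 2 libraries were too small to look for a library that stands apart from its group.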

How the results depend on the processing

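The number of members called moved with the processing, and so did the share of all genes called in the same fit, given in parentheses. With the clone as a replicate block, which pairs the libraries of a clone, the members called went from 6 to 25 (38.4%) for miR-301b in Y537S, from 13 to 21 (33.3%) in D538G and from 5 to 16 (28.2%) in WT, from 10 to 29 (60.7%) for miR-331 in Y537S and from 9 to 16 (37%) in WT, from 9 to 21 (29.3%) for miR-181c in D538G and from 7 to 12 (27.9%) in WT, from 0 to 10 (11.2%) for the let-7f inhibitor and from 0 to 11 (16.7%) between the control oligonucleotides; for the interactions it went from 0 to 2 (0.202%) for miR-301b, Y537S minus WT, and from 2 to 18 (34.1%) for miR-331. The block lost none of the 66 called values it could be fitted to. The block with GC correction gave 23 (28.2%) for miR-301b in Y537S, 11 (14.4%) in WT, 28 (53.4%) for miR-331 in Y537S, 15 (22.6%) in WT, 18 (18.6%) for miR-181c in D538G, 15 (17.2%) in WT, 12 (10.3%) for let-7f and 12 (15.1%) between the controls. GC correction alone gave 1 (0.152%) for miR-301b in Y537S and 2 (7.59%) for miR-331 in WT. DESeq2, over genes it gave an adjusted p, gave 11 (14.9%) for miR-301b in Y537S, 1 (0.556%) for let-7f, 1 (0.774%) between the controls, 11 (11.3%) for Y537S against D538G and 5 (15.4%) for the miR-331 interaction. Without the expression filter the counts were 12 (13.1%) for miR-301b in WT, 16 (12.4%) for miR-181c in D538G, 14 (10.1%) for Y537S against D538G and 5 (9.72%) for the miR-331 interaction. Leaving out 1 library at a time gave 1 to 5 (0.121% to 1.9%) for miR-301b in Y537S, 9 to 14 (4.86% to 13.6%) in D538G and 4 to 11 (4.35% to 16.7%) in WT, 8 to 12 (20.2% to 31.1%) for miR-331 in Y537S and 3 to 10 (9.97% to 23.2%) in WT, 4 to 12 (2.34% to 11.8%) for miR-181c in D538G and 5 to 9 (5.75% to 15.6%) in WT, 0 (0% to 0.0321%) for let-7f and 0 (0% to 0.0968%) between the controls, 20 to 32 (12.1% to 39.3%) for Y537S against WT, 24 to 27 (26.2% to 36.8%) for D538G against WT and 3 to 12 (1.39% to 11.5%) for Y537S against D538G. The sign turned for CTSD with miR-301b in D538G (-0.046 with GC correction, and -0.046 with the block as well), CTSD with miR-181c in D538G (-0.082 and -0.081), CELSR2 (-0.085 in both) and ABCA3 (-0.043 and -0.044) with miR-331 in WT, and UGCG for Y537S against WT in the miR-331 libraries (-0.023). Of the called values of single genes, GC correction kept 94, made 28 fall short of the threshold and turned 4; DESeq2 kept 123 of 125, other size factors 125 of 126, and leaving out a library kept 384 and lost 112. The lone library of an arm is then assumed to vary like the others. Other libraries of the same genotypes, in place of the controls, kept 99 genotype differences, lost 15 and turned 1. Against WT, the members' median log2 difference in miR-301b libraries was 0.370 in Y537S (20.4% of all genes called) and 0.270 in D538G (31.4%). It was 0.967 in Y537S with miR-331 (49.6%) and 0.547 in D538G with miR-181c (34.9%). In the controls it was 0.731 in Y537S and 0.553 in D538G. The cause of these moves was not tested, except that a left-out library leaves fewer samples. At 31379962 to 50526442 counts per library, depth limits AREG, EGR3, SGK3, NBL1, TFF1 and ELOVL2.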

Other observations

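AREG, a growth factor of the EGF family, and UGCG had the inhibitor control libraries above the mimic control libraries in Y537S, an observation chosen after the values were seen; the quasi-likelihood test of edgeR called neither. AREG stood at 1.28 and 1.44 CPM with the inhibitor control, 0.0258 and 0.424 with the mimic control and 0.105 and 0.135 with the let-7f inhibitor, so the lowered AREG that DESeq2 called for let-7f was measured against a control above the other one. UGCG stood at 117 and 120.2 CPM with the inhibitor control, 135 and 126 with the let-7f inhibitor and 84.8 and 88 with the mimic control.

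Across the 24 libraries, the genes whose levels ran closest to the mean of 36 members averaging 1 log2 CPM or more were the chaperonin subunit CCT4 (r = 0.963), POLE3 (0.955), RUVBL1 (0.954), RPL4 (0.953) and SEH1L (0.952), while ESR1 stood at 0.822 and PGR, the progesterone receptor, at 0.413. Among the members, SIAH2 (0.979), FKBP4 (0.974) and MYC (0.969) ran closest to the mean of the others, and BCAS1 (-0.896), TIPARP (-0.787) and SERPINA1 (-0.572) ran opposite to it. The libraries share clones and genotypes, so these correlations are descriptions of likeness only.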
